A study of Mus musculus with 22 samples.

Results

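The NF-kB subunits and inhibitors are the genes of the transcription factor NF-kB itself and of the IkB proteins that bind it. They were taken as a list of 10 gene symbols (Nfkb1, Nfkb2, Rel, Rela, Relb, Nfkbia, Nfkbib, Nfkbie, Nfkbiz and Bcl3). Probe sets annotated to exactly 1 of these symbols were used, and each gene was read from the probe set with the highest mean. Of the 10 symbols, 9 had such a probe set, 18 probe sets in all, among 18193 genes named this way on the array; Nfkb1 was not analysed here. All 9 genes passed the filter on low intensity and entered the tests over 15534 genes.

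NF-kB is a family of DNA-binding dimers built from RelA, RelB, c-Rel, p50 (from Nfkb1) and p52 (from Nfkb2). In resting cells the classical inhibitors IkBalpha (Nfkbia), IkBbeta (Nfkbib) and IkBepsilon (Nfkbie) hold the dimers in the cytoplasm. Cytokines such as tumour necrosis factor activate the IKK kinases, which mark the inhibitors for destruction and release the dimers to the nucleus. The nuclear IkB proteins IkBzeta (Nfkbiz) and Bcl-3 bind p50 or p52 dimers on DNA and change which genes are transcribed. Several of these genes are themselves NF-kB targets, so the pathway feeds back on its own components. In the vessel wall NF-kB is known for driving chemokine and adhesion molecule genes.

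RNA was measured on 22 Affymetrix Mouse Genome 430 2.0 arrays, all from male C57BL/6 mice of unstated age. Of these, 14 arrays held suprarenal aortic smooth muscle cells of tenascin C knockout (TNC-KO) mice, so every culture, controls included, lacked the gene. Tenascin C (TNC) is an extracellular matrix glycoprotein that appears in injured tissue. Arrays numbered 3 for cells left without either factor and 3 for cells stimulated with TNF-alpha, or tumour necrosis factor (TNF), at 10 ng/mL. A further 4 held cells cultured with exogenous TNC at 10 ug/mL, and 4 held cells that received TNC and TNF together. The design text gives 24 h of TNF and describes 3 independent cultures without and 4 with exogenous TNC. The hours in the source labels vary from array to array, and the design text was followed. Whether arrays with and without TNF came from one culture is not stated. Titles of the TNC-only arrays name "TNC or TNF", and the treatment label, exogenous TNC, was followed. The other 8 arrays held pooled aortic RNA, 1 pool per genotype (WT for wild type, KO for TNC-KO), aortic segment (suprarenal or infrarenal) and treatment. Treated mice, called CaAngII here, had CaCl2 (0.5 M) placed around the infrarenal aorta only and angiotensin II infused at 1 ug/min/kg for 1 week; untreated pools held 5 mice and CaAngII pools 8. With 1 pool per condition there is no replicate in the tissue, so pool values are given without a test.

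Values are linear array intensities, on a scale where the trimmed mean, over the middle 96% of an array, was 500 on each one. The median probe set lay between 51.01 and 64.61 on the cell arrays and between 119.26 and 134.48 in the pools. Replicate cell arrays correlated at 0.962 to 0.969. The labelled cell type was checked against its markers: 6 of 7 smooth muscle markers were at or above the 30th percentile on all 14 cell arrays, the exception being Myocd. The same held for 6 of 6 endothelial markers, 4 of 4 fibroblast markers and 4 of 8 macrophage markers, but for 0 of 7 lymphocyte and 0 of 6 neutrophil markers. The 30th percentile lay at only 18.15 to 23.14 intensity units, so passing it says little about cell type. Myh11 ran from 27.93 to 407.0 and Cnn1 from 30.54 to 1572 on the cell arrays, against at least 8638 and 3961 in the pools. Endothelial Pecam1 and Cdh5 ran from 3097 to 5065 and from 1629 to 2472, against at most 3974 and 1502 in the pools. No marker of any list was at 0. Summed over their lists, macrophage markers ran from 468.3 to 498.0 in unstimulated cells, from 559.5 to 599.0 with TNF, from 1556 to 2472 with TNC and from 1506 to 1707 with both. Cd14 alone spanned 93.67 to 1957 over the cell arrays, and none of the other 7 exceeded 277.8. Endothelial sums ran from 6515 to 7226, 7283 to 7832, 8727 to 9817 and 7139 to 7561 in the same order. Smooth muscle sums, mostly from Acta2 and Tagln, ran from 40020 to 41570, 23530 to 25570, 32020 to 35210 and 24000 to 27120. Fibroblast sums ran from 8487 to 10170, 22330 to 23370, 23520 to 25560 and 27070 to 29340, and adipocyte sums, nearly all from Fabp4, from 5230 to 7182, 1400 to 1594, 6859 to 8456 and 1852 to 2379. Neutrophil sums ran from 88.25 to 116.7, 289.5 to 330.0, 493.2 to 698.7 and 638.2 to 900.5, and lymphocyte sums stayed between 58.7 and 129.6. Apart from the lymphocyte sums, these moved with the treatments; their part in the results below was not tested.

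Because members of the family are known to be transcribed from kB sites, the promoters of the members were searched for the kB consensus motif on both strands, in the 250 bases before each annotated start (RefSeq, GRCm38.p6). Promoter windows were at hand for 7 of the 9 genes; Relb and Nfkbiz were not in the table used. The motif was found in 4 of the 7 (Rel, Nfkbia, Nfkbie and Nfkb2) and not in the windows of Rela, Nfkbib and Bcl3. Among all 32851 promoter windows of the same length, 3.9% held it. That share counts single windows, whereas the 7 genes had 9 windows and a gene counted if any of its windows held the motif. The last 120 bases before the start are shown for the 4 genes, on the strand of the gene, with each match in capitals, so that the arrangement of the family's own binding motif in these members can be seen.
Rel, chr11:23770970-23771089, minus strand: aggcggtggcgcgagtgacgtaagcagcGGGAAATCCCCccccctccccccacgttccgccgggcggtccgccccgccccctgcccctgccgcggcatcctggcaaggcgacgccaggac
Nfkbia, chr12:55492648-55492767, minus strand: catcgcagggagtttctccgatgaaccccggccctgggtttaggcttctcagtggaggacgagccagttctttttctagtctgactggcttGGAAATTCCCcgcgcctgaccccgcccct
Nfkbie, chr17:45555580-45555699, plus strand: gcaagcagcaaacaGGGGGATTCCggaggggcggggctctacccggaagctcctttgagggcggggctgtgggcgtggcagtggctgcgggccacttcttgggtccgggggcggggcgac
Nfkb2, chr19:46304617-46304736, plus strand: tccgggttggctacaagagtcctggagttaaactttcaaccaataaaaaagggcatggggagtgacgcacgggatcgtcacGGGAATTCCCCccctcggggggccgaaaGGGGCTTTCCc
In Rel the capitals are 2 overlapping matches beginning 92 and 91 bases before the start. In Nfkb2, shown at the first of its 3 annotated starts, 2 overlapping matches begin 39 and 38 bases before the start and a separate one begins 11 bases before it. The single matches begin 29 bases before the start in Nfkbia and 106 bases before it in Nfkbie. A match is a description of letters, not evidence of binding in these samples.

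In cultured cells, TNF alone was followed by higher levels of all 9 genes, exogenous TNC alone by higher levels of 8, and none of the 9 was lower in either comparison. The sizes were not alike: Nfkbie rose 24.04-fold with TNF and 4.324-fold with TNC, whereas Nfkbiz rose 2.622-fold with TNF and 9.059-fold with TNC. By limma with Benjamini-Hochberg adjustment over all genes tested, at an adjusted p of 0.05, 9 of 9 members were higher with TNF without TNC, against 14.3% of all genes called higher (20.3% were called lower). With TNC without TNF, 8 of 9 were higher against 16.1% of all genes (15.7% were called lower). The members' median log2 change was 1.57 with TNF and 1.34 with TNC, beside medians over all genes of -0.06 and -0.03.

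**Figure D1:**
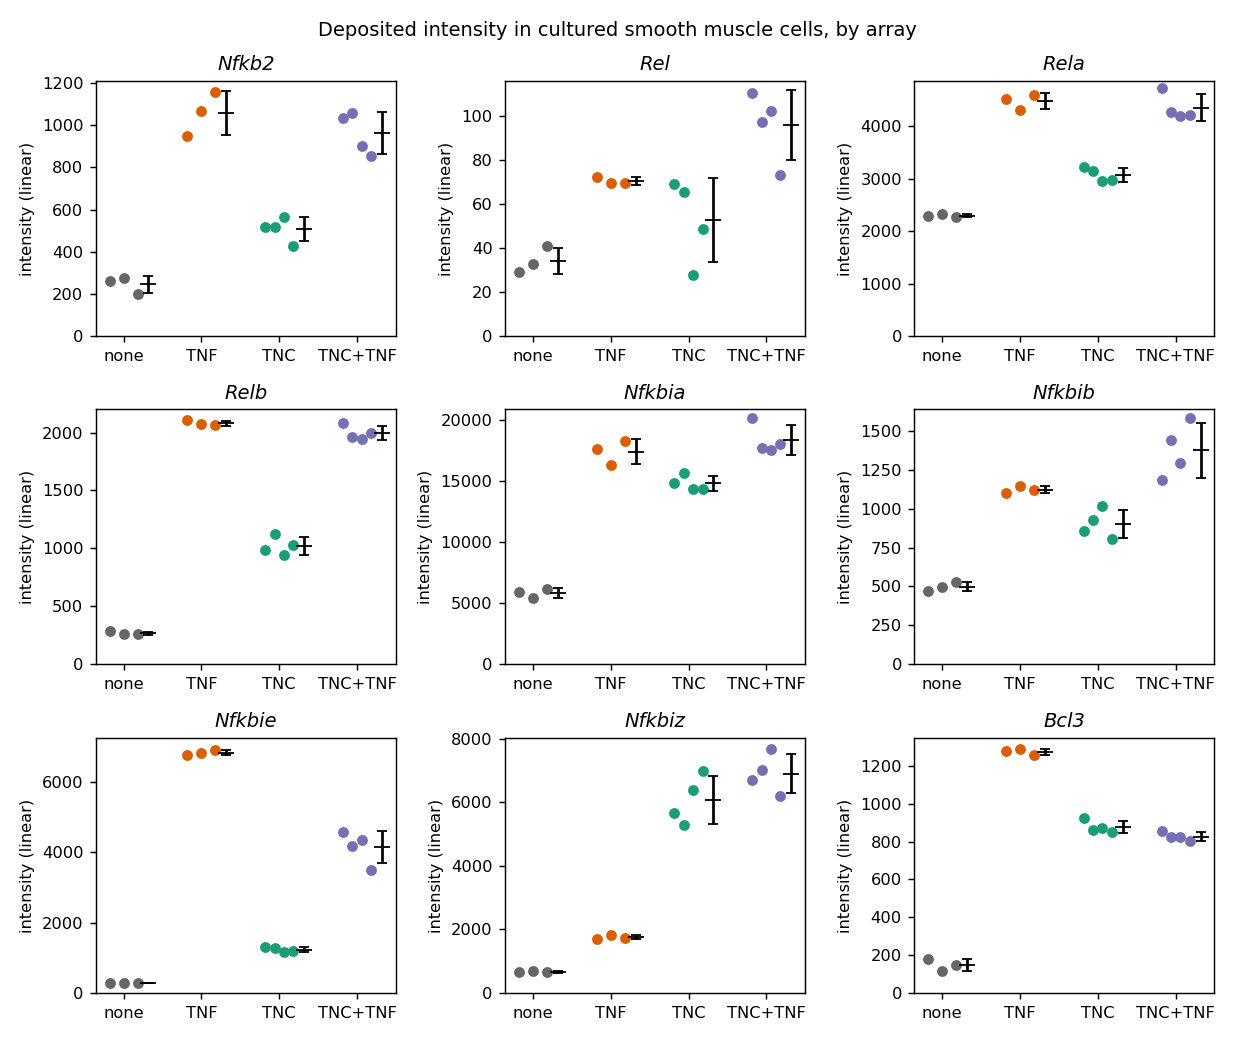
Deposited intensity (linear scale from 0, arbitrary units) of the 9 genes on each of the 14 cell arrays, 1 panel per gene. Points are arrays and black bars the mean ± SD of 3 or 4 arrays; Nfkbie stands highest with TNF alone, Nfkbiz is high in both groups with TNC, and Bcl3 is lower with both factors than with TNF alone.

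Among the subunits, Rela encodes the main transactivating subunit of the classical pathway. Its intensity was 2297, 2322 and 2263 in unstimulated cells, 4521, 4309 and 4606 with TNF, 3231, 3146, 2962 and 2973 with TNC, and 4743, 4268, 4205 and 4211 with both. The unstimulated, TNC and TNF-treated arrays form 3 separate levels, and the arrays with both factors overlap those with TNF alone. The log2 change was 0.96 (SE 0.06, adjusted p = 2.49e-07) with TNF and 0.42 (SE 0.06, adjusted p = 0.000166) with TNC. Rela thus had the smallest response of the 9 to either factor, on a level that was already the 50th percentile or above on every array.

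Relb encodes the subunit that pairs with p52 in the non-canonical branch. It read 284.5, 260.9 and 265.0 in unstimulated cells, 2106, 2073 and 2062 with TNF, 987.1, 1125, 945.8 and 1033 with TNC, and 2084, 1964, 1947 and 1996 with both. No TNC-only array reached a TNF array, and no unstimulated array came near a TNC one. Relb rose on the log2 scale by 2.95 (SE 0.07, adjusted p = 6.99e-11) with TNF and by 1.92 (SE 0.06, adjusted p = 1.87e-09) with TNC.

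Nfkb2 encodes p100, the precursor of p52, which also acts as an inhibitor. It read 260.4, 273.8 and 198.8 in unstimulated cells, 950.0, 1067 and 1157 with TNF, 517.2, 514.9, 565.6 and 427.2 with TNC, and 1033, 1060, 901.5 and 854.5 with both. The order was the same as for Relb, with the TNF and double-treated arrays overlapping. The log2 change was 2.12 (SE 0.14, adjusted p = 4.88e-07) with TNF and 1.06 (SE 0.13, adjusted p = 0.000116) with TNC.

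Rel encodes c-Rel, the subunit best known from lymphoid cells, and was the least certain member. It read 29.06, 32.64 and 40.66 in unstimulated cells, 72.31, 69.35 and 69.5 with TNF, 69.0, 65.28, 27.64 and 48.6 with TNC, and 110.2, 97.06, 102.0 and 73.22 with both. These are dim values for these arrays, and the TNC arrays spread from below to above the unstimulated ones. With TNF the log2 change was 1.06 (SE 0.29, adjusted p = 0.015), a call that was lost without the first unstimulated array (adjusted p = 0.0553). With TNC it was 0.55 (95% interval -0.05 to 1.16, adjusted p = 0.153), which did not pass; without the third TNC array, at 27.64, it was 0.835 with an adjusted p of 0.00567.

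The classical inhibitors also rose with either factor, and the gap between TNF and TNC was widest for Nfkbie. Nfkbie encodes IkBepsilon, which is made late after stimulation and damps NF-kB in the nucleus. Its values were 281.0, 291.4 and 279.8 in unstimulated cells, 6752, 6821 and 6912 with TNF, 1298, 1284, 1150 and 1187 with TNC, and 4580, 4187, 4337 and 3501 with both. The 4 treatments fell into 4 levels with no overlap, the double treatment lying below TNF alone. Against unstimulated cells the log2 change was 4.59 (SE 0.09, adjusted p = 4.29e-11) with TNF and 2.11 (SE 0.08, adjusted p = 9.29e-09) with TNC.

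Nfkbia encodes IkBalpha, the fast feedback inhibitor. It read 5917, 5448 and 6210 in unstimulated cells, 17650, 16350 and 18340 with TNF, 14870, 15710, 14380 and 14370 with TNC, and 20160, 17770, 17570 and 18090 with both. All TNC-only arrays lay below all TNF arrays, by a smaller step than for Nfkbie or Relb. Nfkbia rose on the log2 scale by 1.57 (SE 0.07, adjusted p = 2.24e-08) with TNF and by 1.34 (SE 0.07, adjusted p = 8.46e-08) with TNC. These are among the brightest spots of the arrays, whose brightest gene values ran from 26914 to 33291 on the cell arrays.

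Nfkbib encodes IkBbeta, the slower-turning inhibitor. Its values were 472.3, 497.9 and 527.1 in unstimulated cells, 1101, 1146 and 1118 with TNF, 858.0, 929.2, 1016 and 806.0 with TNC, and 1180, 1441, 1290 and 1580 with both. It was the one classical inhibitor whose double-treated arrays all stood above those with TNF alone. The log2 change was 1.17 (SE 0.11, adjusted p = 7.24e-06) with TNF and 0.85 (SE 0.10, adjusted p = 8.16e-05) with TNC.

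The nuclear IkB proteins gave different patterns. Nfkbiz encodes IkBzeta, a co-activator needed for a set of secondary NF-kB genes such as Lcn2 and Il6. It read 654.5, 702.8 and 642.9 in unstimulated cells, 1702, 1823 and 1717 with TNF, 5657, 5272, 6386 and 6967 with TNC, and 6697, 7008, 7666 and 6206 with both. Every array with TNC, whether or not TNF was added, lay above every array without it. Nfkbiz rose on the log2 scale by 1.39 (SE 0.10, adjusted p = 1.19e-06) with TNF and by 3.18 (SE 0.10, adjusted p = 1.37e-09) with TNC.

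Bcl3 encodes a partner of p50 and p52 dimers that can activate or repress. Its values were 176.9, 117.3 and 149.2 in unstimulated cells, 1277, 1287 and 1258 with TNF, 925.3, 862.9, 869.3 and 852.0 with TNC, and 856.6, 826.5, 821.6 and 801.2 with both. The double-treated arrays overlapped the lower end of the TNC-only arrays and lay well under the TNF arrays. Bcl3 rose on the log2 scale by 3.13 (SE 0.11, adjusted p = 3.13e-09) with TNF and by 2.59 (SE 0.11, adjusted p = 1.27e-08) with TNC.

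**Figure D2:**
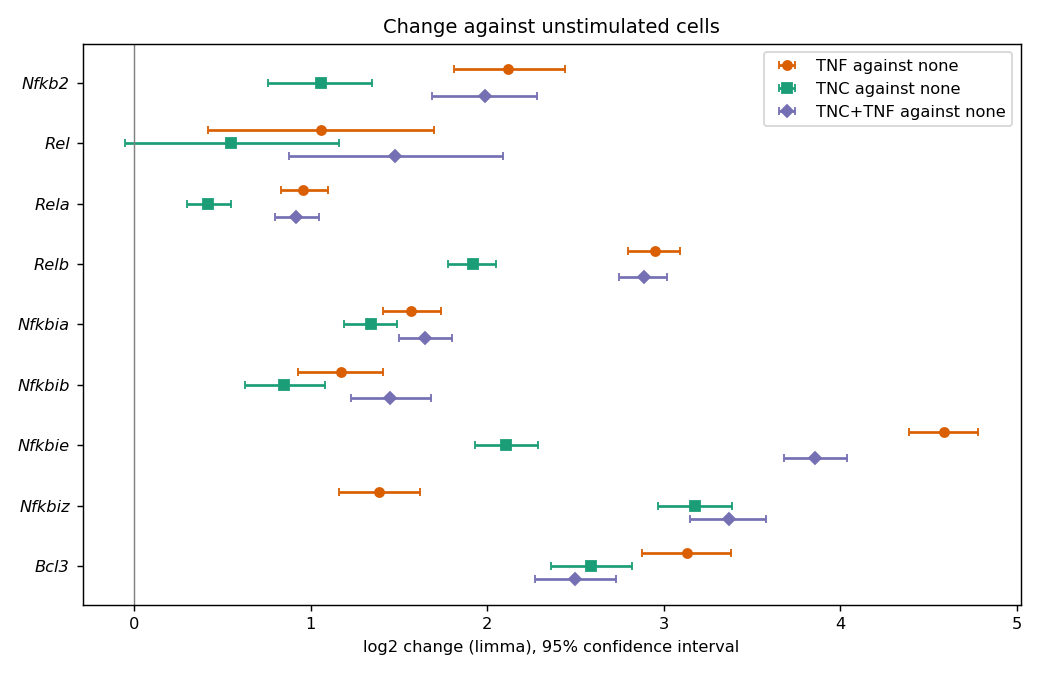
log2 change against unstimulated cells (x axis, limma estimate with its 95% confidence interval) for the 9 genes with TNF, with TNC and with both factors (3, 4 and 4 arrays against 3). TNF gives the largest single-factor change for 8 genes and TNC for Nfkbiz, at 3.18 against 1.39.

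Set directly against TNF, TNC left 7 of the 9 genes lower and 1 higher, where 10.4% of all genes were called lower and 18.2% higher. The higher one was Nfkbiz, by 1.79 on the log2 scale (adjusted p = 1.39e-07). Nfkbie was lowest relative to TNF, with a log2 difference of -2.47 (adjusted p = 3.38e-09), followed by Nfkb2 at -1.07 (adjusted p = 0.000124) and Relb at -1.03 (adjusted p = 2.86e-07). Rela and Bcl3 were each lower, with log2 differences of -0.54 (adjusted p = 2.89e-05) and -0.54 (adjusted p = 0.0026). Rel did not pass, at -0.50 (adjusted p = 0.201). The calls for Nfkbia, at -0.23 (adjusted p = 0.0246), and Nfkbib, at -0.32 (adjusted p = 0.0365), were the weakest and did not hold when each array was centred on its median (adjusted p = 0.239 and 0.0818) or without some single arrays. For Nfkbia these were TNF replicates 1 and 3 and TNC replicates 3 and 4 (adjusted p from 0.0553 to 0.102). For Nfkbib they were all 3 TNF replicates and TNC replicates 1, 2 and 4 (adjusted p from 0.0543 to 0.105). Both genes were read here from their brightest probe sets. In a limma fit over probe sets, the others of Nfkbia gave larger differences, -0.43, -0.58, -0.62 and -0.36 (adjusted p from 7.665e-05 to 0.0074). The dim second probe set of Nfkbib gave -0.90 (adjusted p = 0.0113).

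With both factors present all 9 genes stood above unstimulated cells, against 20.7% of all genes called higher and 22.5% lower, with log2 changes from 0.92 for Rela to 3.86 for Nfkbie. The next question was what TNC adds to cells that already receive TNF. Of the 9 genes, 1 was higher and 2 lower, where 16.3% of all genes were called higher and 11.9% lower. Nfkbiz rose by 1.98 (SE 0.10, adjusted p = 1.96e-07), Nfkbie fell by 0.73 (adjusted p = 8.21e-05) and Bcl3 fell by 0.62 (adjusted p = 0.00118), all on the log2 scale. For the other genes the intervals of the difference were narrow for Rela (-0.16 to 0.08), Relb (-0.19 to 0.07) and Nfkbia (-0.07 to 0.23), and wider for Nfkb2 (-0.43 to 0.16) and Rel (-0.18 to 1.03). Nfkbib stood 0.28 higher (adjusted p = 0.0606) with no overlap between arrays, and passed under some other settings: 0.379 with median centring (adjusted p = 0.0168), 0.282 with an intensity trend (adjusted p = 0.0295) and 0.352 without the first double-treated array (adjusted p = 0.022).

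Turned the other way, TNF added less in cells with TNC than in cells without it. With TNC present, TNF raised 7 of the 9 genes, against 9.6% of all genes called higher, and lowered none (12.5% of all genes). The log2 change was 1.75 (adjusted p = 1.26e-07) for Nfkbie, 0.97 (adjusted p = 5.79e-07) for Relb, 0.93 (adjusted p = 0.000269) for Nfkb2 and 0.93 (adjusted p = 0.0216) for Rel. It was 0.60 (adjusted p = 0.000856) for Nfkbib, 0.50 (adjusted p = 4.21e-05) for Rela and 0.31 (adjusted p = 0.00476) for Nfkbia. The 2 nuclear IkB genes did not pass, Nfkbiz at 0.19 (adjusted p = 0.173) and Bcl3 at -0.09 (adjusted p = 0.603). The call for Rel was lost without the fourth TNC array (adjusted p = 0.0507) and without the first (adjusted p = 0.0553) or second (adjusted p = 0.0509) double-treated array.

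The difference between these TNF effects was itself tested as an interaction, the TNF effect with TNC minus the TNF effect without it. It was negative for 8 of the 9 genes and positive for none, beside 9.01% of all genes called negative and 9.81% positive. Bcl3 had the largest difference, -3.21 (SE 0.15, adjusted p = 1.72e-07), its TNF effect going from 3.13 to -0.09. Nfkbie followed at -2.84 (SE 0.12, adjusted p = 8.25e-08) and Relb at -1.98 (SE 0.09, adjusted p = 1.21e-07). Nfkbia was at -1.27 (adjusted p = 5.93e-06), Nfkb2 at -1.20 (adjusted p = 0.00109) and Nfkbiz at -1.20 (adjusted p = 0.000117). The smallest passing differences were those of Nfkbib at -0.57 (adjusted p = 0.0182) and Rela at -0.46 (adjusted p = 0.00185). For Rel the difference was -0.13 with a 95% interval from -0.98 to 0.72.

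**Figure D3:**
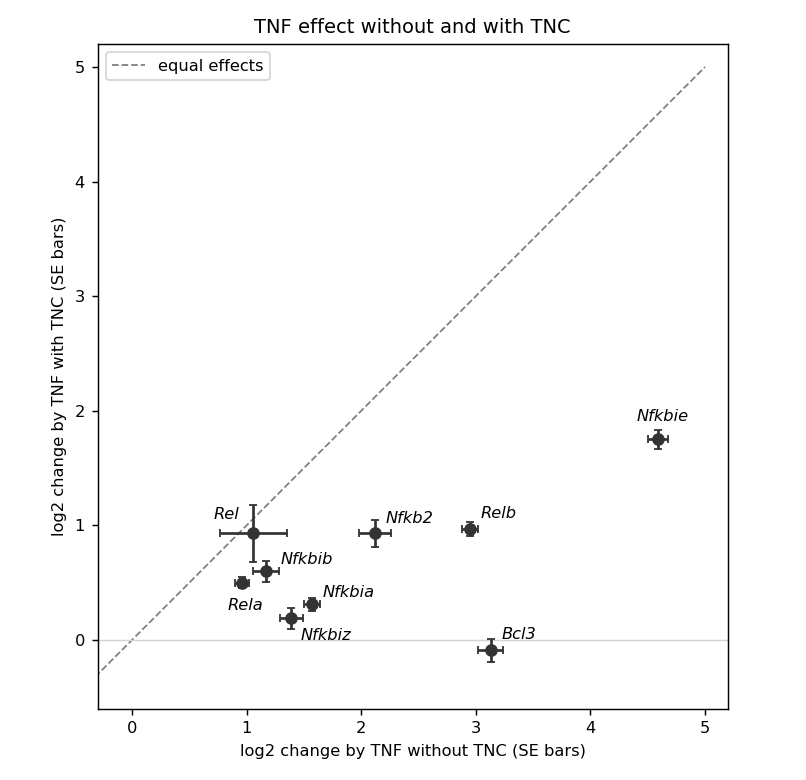
log2 change by TNF in cells without TNC (x axis, 3 against 3 arrays) and with TNC (y axis, 4 against 4 arrays), 1 point per gene, bars showing the SE and the diagonal marking equal effects. All points lie below the diagonal, Bcl3 farthest at 3.13 and -0.09, and Rel nearest with the widest bars.

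A difference of log2 effects can be negative even where 2 effects add up on the linear scale, so the sum of the separate rises was also set beside the double treatment, as a description chosen after the values were seen and with no test. For Nfkbiz the mean with both factors was 6894, and the unstimulated mean plus both single rises came to 7151, so the double treatment reached 96.4% of the sum, a gap of less than 1 SE. Rel reached 108% of its sum (95.63 against 88.89) and Nfkbib 90.0% (1373 against 1525), both differing from the sum by less than 2 SE. The remaining genes fell short by more. Bcl3 reached 41.2% of its sum (826.5 against 2004), Nfkbie 53.4% (4151 against 7774), Nfkbia 69.6%, Relb 70.5%, Nfkb2 72.9% and Rela 82.8%. On this scale Nfkbiz lay near its sum and Bcl3 below the level of TNF alone. For Nfkbiz the mean with TNC alone, 6071, already made up most of the sum of 7151. TNF added to TNC did not pass for this gene by limma (log2 change 0.19, adjusted p = 0.173). Its nearness to the sum thus cannot tell a full further rise with TNF from none.

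Other probe sets of the same genes differed from the brightest ones in places for Nfkbia, Nfkbiz and Nfkbib. The 5 probe sets of Nfkbia, with means from 12606 down to 446.0 over all arrays, all rose with either factor, but the brightest gave the smallest TNF effect, 1.57, against 2.03, 2.36, 2.56 and 2.29 for the others. Their interactions ran from -1.27 for the brightest to -2.43 for the dimmest. On the dimmest, TNC in the presence of TNF gave a log2 change of -0.49 (adjusted p = 0.00117). For Nfkbiz the second probe set gave 2.05 for TNC in the presence of TNF, near the 1.98 of the first, whereas the third, with a mean of 316.4, gave -0.17 (adjusted p = 0.582). The same probe set also did not show the higher level with TNC than with TNF: its log2 change was 1.56 with TNF and 1.22 with TNC, a difference of -0.34 (adjusted p = 0.243). The dim second probe set of Nfkbib, with a mean of 46.46, rose with TNF by 1.14 (adjusted p = 0.00296) but did not pass with TNC alone (0.25, adjusted p = 0.458), with TNF in the presence of TNC (0.52, adjusted p = 0.103) or in the interaction (-0.62, adjusted p = 0.229). Its value for TNC in the presence of TNF was -0.38 (adjusted p = 0.254), opposite in sign to that of the first. Which transcripts each probe set reads was not analysed here. The second probe set of Nfkbie gave -0.87 and a negative interaction of -2.62. That of Nfkb2 gave 0.07 and -0.96.

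Across the 14 cell arrays the members' log2 intensities followed each other unevenly; these correlations share the 4 treatments and are given as descriptions. The closest pair was Rela and Nfkbie (Pearson r = 0.986), and Nfkb2 was close to both (0.980 and 0.981). Nfkbiz stood apart, at 0.512 with Nfkbie, 0.527 with Rela and 0.562 with Nfkb2, and at most 0.790, with Nfkbia. Over all genes tested, the profiles nearest to Nfkbiz were Angptl4 (0.995) and Zc3h12a (0.993), the latter encoding the RNase Regnase-1. Those nearest to Nfkbie were Birc2 (0.996), which encodes the ubiquitin ligase cIAP1, and Ntn1 (0.994), and those nearest to Relb were Dram1 (0.998) and Tlr2 (0.996). Rela lay closest to Tnfaip3 (0.991), which encodes the brake A20, and Cyba (0.990). Bcl3 was nearest to Gypc (0.985) and Ccl9 (0.983), Nfkb2 to Ptgir (0.987) and Calhm6 (0.984), and Nfkbia to Sap30 (0.994) and H2-K1 (0.994). For Nfkbib they were Htra2 (0.979) and Fuom (0.976), and for Rel, Tmem134 (0.960) and 4833438C02Rik (0.953).

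The rest of the pathway was described from 5 lists, whose counts are to be read against all genes tested: 14.3% higher and 20.3% lower with TNF, 16.1% higher and 15.7% lower with TNC, and 9.01% negative and 9.81% positive in the interaction. Of the 12 IKK kinases and kinases above them, 5 were higher with TNF (14.3% of all genes) and 3 with TNC, near the 16.1% of all genes, and none lower. Map3k8, the kinase Tpl2 that binds the p105 product of Nfkb1, also had its highest means in the groups with TNC: its mean was 45.98 in unstimulated cells, 218.3 with TNF, 797.9 with TNC and 619.3 with both. Ikbke rose with TNF (log2 change 1.67, adjusted p = 2.17e-06) and with TNC (1.31, adjusted p = 1.55e-05), and Ikbkb, the main catalytic IKK subunit, by 0.64 and 0.41. Tbk1 rose with TNF by 1.13 and was lower with both factors than with TNF alone (log2 difference -0.39, adjusted p = 0.00872).

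Of 17 receptor adaptors and ubiquitin ligases, 12 were higher and 1 lower with TNF, 10 higher and 1 lower with TNC (all genes 14.3% and 16.1% higher), and 8 had a negative interaction (all genes 9.01%) and none a positive one. Birc3 (cIAP2) and Birc2 rose with TNF by 3.61 and 2.43 and with TNC by 2.23 and 1.20. Traf1 rose with TNF by 2.13 and Malt1 by 1.63. Traf2 rose with TNC by 1.08, from a mean of 316.3 to 667.0, beside 666.5 with TNF. Tnfrsf1b, the second TNF receptor, rose with TNC by 1.01, from 470.3 to 950.0, beside 934.4 with TNF. Rnf31, the catalytic subunit of the linear ubiquitin ligase, was lower with both factors than with TNF alone (log2 difference -1.10, adjusted p = 0.000228), as were its partner Rbck1 (-0.44) and the adaptor Myd88 (-0.46).

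Of 15 genes of feedback and other brakes, 5 were higher and 3 lower with TNF, and 5 higher and 2 lower with TNC. The shares lower are close to the 20.3% and 15.7% over all genes, beside 14.3% and 16.1% higher. Tnfaip3 had a mean of 696.5 in unstimulated cells, 6276 with TNF, 1833 with TNC and 5260 with both, and its partner Tnip1 one of 955.5, 4914, 1762 and 3530. The means of both genes thus stood in the order seen for Nfkbie, highest with TNF alone. Zc3h12a stood in the order of Nfkbiz, with means of 67.89, 160.8, 766.1 and 898.7, and rose by 2.48 when TNC was added to TNF (adjusted p = 4.44e-07). Irak3 rose with TNF (1.90) and TNC (1.94), while Pdlim2, which promotes RelA degradation, fell by 1.39 on the log2 scale with TNF (adjusted p = 7.84e-07). Among 9 other ankyrin or nuclear partners only Nfkbid, the third inducible nuclear IkB gene, was higher with TNF (1.66), from a dim mean of 17.83 to 56.35; with TNC 4 were higher and 1, Commd1 (-0.44), lower.

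Of 28 known direct targets, 22 were higher and 2 lower with TNF, 19 higher and none lower with TNC, against 14.3% and 16.1% of all genes higher. In the interaction 17 were negative and 2 positive, against 9.01% and 9.81% of all genes. Lcn2, which depends on IkBzeta, had means of 25.22, 2525, 23670 and 26460 in unstimulated, TNF, TNC and double-treated cells, and Saa3, an acute-phase gene, 45.12, 10730, 24160 and 25360. Cxcl10, a chemokine of the interferon response, was high with TNF alone, with means of 73.77, 12070, 43.32 and 665.2. Ccl5 rose with both factors singly (log2 changes 9.17 and 7.13). Cxcl5 was 6.53 higher and Csf2 6.80 higher on the log2 scale when TNC was added to TNF (adjusted p = 6.68e-09 and 4.16e-06). The lists' median log2 changes with TNF were 2.01 for the targets, 0.59 for the adaptors, 0.33 for the kinases, 0.05 for the nuclear partners and 0.01 for the brakes, beside -0.06 over all genes.

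In the aorta the same genes varied with the segment and the treatment. A subset was higher with CaAngII in the infrarenal aorta, where CaCl2 had been applied, in both genotypes. Nfkbie read 273.1 in the untreated and 1615 in the CaAngII infrarenal pool of WT mice, and 264.5 and 1373 in those of KO mice. Bcl3 went from 168.2 to 949.1 in WT and from 107.6 to 1091 in KO mice. These 2 genes had the widest range over the pools, the highest pool of Bcl3 standing 10.1 times above its lowest. Relb read 243.3 and 763.7 in the WT and 241.3 and 637.2 in the KO infrarenal pools, and Nfkb2 158.5 and 368.8 in the WT and 106.2 and 413.2 in the KO pools. All 4 genes were more than 2-fold higher with CaAngII, with log2 ratios of 2.56 and 2.38 for Nfkbie, 2.50 and 3.34 for Bcl3, 1.65 and 1.40 for Relb, and 1.22 and 1.96 for Nfkb2 in WT and KO mice.

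For counts, a gene had to reach the 50th percentile of its array in either pool of a pair. By this rule 4 of 8 members were 2-fold or more higher in the WT infrarenal pools and 4 of 8 in the KO ones, against 10.6% and 11.1% of all genes; none was 2-fold lower (7.05% and 6.34% of all genes). Nfkb2 and Bcl3 met the level only through the CaAngII pool in KO mice, so their being counted there is partly set by the rule. Rel did not meet it in any pool, at 30.22 and 78.61 in WT and 37.46 and 112.7 in KO mice, log2 ratios of 1.38 and 1.59. Nfkbiz read 1456 and 2784 in WT and 1425 and 2306 in KO mice, under 2-fold in both. Rela and Nfkbia stayed within a narrow band over all 8 pools, 1694 to 2291 and 7692 to 10920, so the highest pool was 1.35 and 1.42 times the lowest. For Nfkbia this holds for its brightest probe set. Its second one gave a log2 ratio of 0.501 in place of 0.17 for CaAngII in the WT infrarenal aorta. Between the WT CaAngII segments, infrarenal against suprarenal, it gave 0.811 in place of 0.38.

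Cell type markers moved with these infrarenal values. The summed macrophage markers went from 11120 to 35320 in WT and from 10490 to 35520 in KO mice, lymphocyte markers from 976.2 to 3554 and from 977.7 to 2432, neutrophil markers from 3576 to 7733 and from 1090 to 12010, while smooth muscle markers went from 92260 to 51420 and from 93170 to 58810. In pooled tissue a change in the number of cells of a type and a change in RNA per cell cannot be told apart. Of the 6 neutrophil markers 4 met the level in WT mice, 1 of them 2-fold higher and 1 lower, and S100a8 and S100a9 made up most of the sum (1656 and 1489 before, 4792 and 2621 after), while Ngp went from 214.2 to 81.23 and Camp from 86.0 to 55.53. In KO mice all 6 met it and 5 were 2-fold higher. The part of these markers in the result was not tested.

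**Figure D4:**
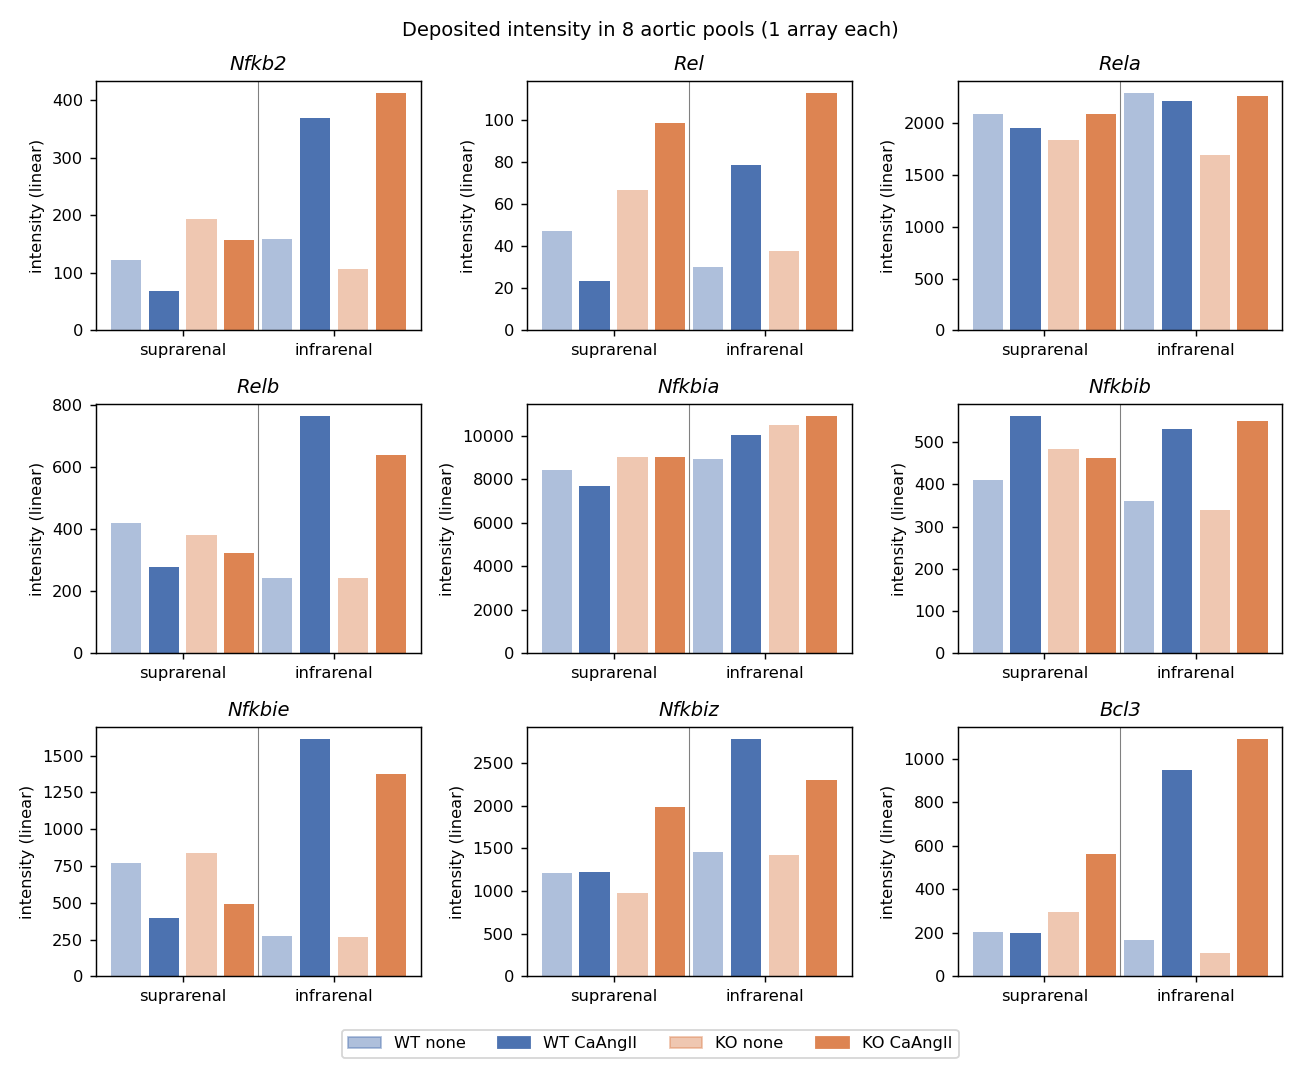
Deposited intensity (linear scale from 0, arbitrary units) of the 9 genes in the 8 aortic pools, 1 bar per pool of 5 or 8 mice, with no replicate and so no error bar. Nfkbie, Relb, Bcl3 and Nfkb2 are highest in the infrarenal CaAngII pools, and Rela and Nfkbia are nearly level on the probe sets shown. Nfkbie and Relb are higher in the untreated suprarenal than in the untreated infrarenal pools.

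In the suprarenal aorta, which received angiotensin II but no CaCl2, the members did not follow the infrarenal pattern. In WT mice 0 of 7 members were past 2-fold in either direction, against 1.22% of all genes higher and 2.39% lower. There Nfkb2 and Rel were below the level, and Nfkbie went from 773.4 to 398.5 and Relb from 419.0 to 277.6. In KO mice 1 of 8 was 2-fold higher, Nfkbiz, against 3.59% of all genes higher and 1.55% lower. Nfkbiz went from 976.8 to 1989 there, and from 1210 to 1222 in WT mice. Bcl3 went from 294.6 to 562.6 in KO mice and from 202.6 to 200.9 in WT mice. Nfkbie went from 838.8 to 494.5 in KO mice, a log2 ratio of -0.76, beside -0.96 in WT mice. Over the same pools the lymphocyte marker sum went from 4589 to 583.8 in WT and from 6234 to 820.1 in KO mice. The neutrophil sum went from 3444 to 932.8 in WT and from 818.3 to 33070 in KO mice. The KO sum lay almost wholly in S100a8 and S100a9, at 17380 and 15180; 3 of the 6 neutrophil markers met the level, Mmp8 being the third, while Ngp went from 113.3 to 67.09 and Camp from 29.58 to 43.55. The part of either in these values was not tested.

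Between genotypes, the members past 2-fold were all in the suprarenal CaAngII pools. There, KO stood above WT for Bcl3 (562.6 against 200.9, log2 ratio 1.49), Nfkb2 (157.0 against 69.45, 1.18) and Nfkbiz (1989 against 1222, 0.70). Rel, below the level for counting, was 98.5 against 23.43 (2.07). By the counting rule 2 of 8 members were 2-fold higher in KO than in WT and none lower, against 2.52% and 0.336% of all genes, Nfkb2 meeting the level only through the KO pool. Of the 6 neutrophil markers 3 met the level and were higher in that KO pool, S100a8 (17380 against 475.3), S100a9 (15180 against 276.4) and Mmp8 (323.3 against 46.52). The others were low in both pools, Ngp at 67.09 against 61.1, Camp at 43.55 against 40.42 and Ltf at 71.08 against 33.06. The macrophage sums were 21270 and 14730, with Cd14 (5033 against 983.1) making up most of the gap. Of the 8 macrophage markers 3 were 2-fold higher in KO mice, while Adgre1 (1293 against 1338) and Cd163 (1182 against 1257) were slightly lower. The part of either list in the difference was not tested. In the same comparison 11 of the 24 direct targets that met the level were 2-fold higher in KO mice, against 2.52% of all genes. Only 20 targets met the level when the WT CaAngII pool was paired with the untreated WT pool. Some of the 24 thus met it only through the KO pool, so their being counted is partly set by the rule. The other genotype comparisons counted no member past 2-fold: 0 of 8 in the untreated suprarenal pools (0.583% of all genes higher and 1.28% lower), 0 of 8 in the untreated infrarenal pools (1.03% and 0.671%) and 0 of 8 in the infrarenal CaAngII pools (0.574% and 0.599%). On the probe sets used, Nfkbie and Relb differed between genotypes by at most 0.31 on the log2 scale in any of the 4 comparisons, and Nfkbia by at most 0.23. The second probe set of Nfkbie gave 0.591 in place of -0.05 for KO against WT in the untreated infrarenal pools.

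Between segments, the order turned with treatment for Nfkbie, Relb and Bcl3 in both genotypes, but not for all members. Rel, below the level for counting, also turned, from -0.64 to 1.75 in WT and from -0.83 to 0.19 in KO mice. Nfkbiz and Nfkbia were higher in the infrarenal pool in all 4 comparisons, with log2 ratios from 0.21 to 1.19 and from 0.08 to 0.38. Nfkb2 turned in KO mice (-0.86 untreated, 1.40 with CaAngII) but not in WT mice (0.37 and 2.41). By smaller steps, Nfkbib (-0.51 and 0.25) and Rela (-0.12 and 0.12) likewise turned in KO mice only. In untreated mice Nfkbie was lower in the infrarenal than in the suprarenal pool, with log2 ratios of -1.50 in WT and -1.67 in KO mice, and Relb likewise at -0.78 and -0.65. By the rule 1 of 8 members was 2-fold lower in WT and 2 of 8 in KO mice (Nfkbie and Bcl3, the latter at -1.45), against 7.58% and 9.78% of all genes lower, and none was higher, against 1.96% and 3.09%. Bcl3, at 107.6 in the KO infrarenal pool, met the level only through the suprarenal one, at 294.6. Lymphocyte marker sums in these untreated pools were 4589 (WT) and 6234 (KO) in the suprarenal and 976.2 and 977.7 in the infrarenal aorta, and their part was not tested. In CaAngII mice the infrarenal pool was the higher one for 5 of 8 members in WT mice, against 9.51% of all genes higher and 11.2% lower. These were Nfkb2 (2.41), Bcl3 (2.24), Nfkbie (2.02), Relb (1.46) and Nfkbiz (1.19). Nfkb2, at 69.45 in the suprarenal pool, met the level only through the infrarenal one. In KO mice 2 of 8 passed, Nfkbie (1.47) and Nfkb2 (1.40), against 6.79% of all genes higher and 9.34% lower, while Relb (0.98) and Bcl3 (0.95) lay just under 2-fold. None of the members was 2-fold lower in either CaAngII comparison.

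Setting both systems side by side, the tissue and the cells were scaled alike but differ in cell makeup, so only the ranges are given. Nfkbie ran from 264.5 to 1615 over the pools and from 279.8 to 6912 over the cell arrays. Rela ran from 1694 to 2291 in the pools and from 2263 to 4743 in cells, and Nfkbia from 7692 to 10920 and from 5448 to 20160. Bcl3 covered about the same span in both, 107.6 to 1091 in the pools and 117.3 to 1287 in cells.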

How the data were processed

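Intensities were deposited by the authors as linear values, 1 per probe set and array, made with Affymetrix Expression Console per the submitters' processing notes; its version and algorithm were not given in the sources used here. The deposited intensities were scaled, as their trimmed mean of 500 on all 22 arrays shows. Of 45101 probe sets, 64 were controls, 9160 had no symbol and 932 several, leaving 34945 for 18193 genes, each read from its probe set of highest mean. log2 of the deposited intensity was fitted with limma 3.58.1 (R 4.3.3) over the 14 cell arrays as 4 groups, after a filter at the 30th percentile on at least 3 arrays (18.15 to 23.14 intensity units), which left 15534 genes. Values came from 7 contrasts, with Benjamini-Hochberg adjustment over all genes at 0.05. Pool pairs were counted at 2-fold, without a test. The members and lists were chosen with earlier results of these data known.

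Named were all members, up to 4 called genes of the largest absolute log2 change per pathway list for TNF alone, TNC alone, TNC added to TNF and the interaction, and the 2 genes nearest each member by Pearson correlation; Chuk and other genes without a probe set of their own were not analysed here. With each gene's group mean subtracted, 19 pairs of cell arrays with the same replicate number correlated at -0.016 to 0.057. Replicate numbers were not used as pairs in the main fit, and whether such arrays shared a culture is not stated. In simulated data for the 6 pairwise contrasts (15534 genes, 200 changed), 54 to 72% of genes changed by 1 on the log2 scale and 75 to 87% of those changed by 2 were called, with 2.19 to 5.84% false calls. The real contrasts called a far larger share of genes, for TNF alone 14.3% higher and 20.3% lower. The adjusted threshold depends on that share, so the simulated rates hold for the simulated setting only. Promoter windows are those of RefSeq, GRCm38.p6. Alternatives were the normalization, filter, probe set choice, pseudocount, intensity trend, groups fitted, replicate block and leaving out each array. The number of arrays limits the precision.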

Additional observations from a re-analysis of the deposited data

Results flagged for a closer look

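In 8 of the 9 genes the TNF effect differed between cells with and without TNC, by the interaction term of limma with Benjamini-Hochberg adjustment. The differences on the log2 scale were -3.21 for Bcl3, -2.84 for Nfkbie, -1.98 for Relb, -1.27 for Nfkbia, -1.20 for Nfkb2, -1.20 for Nfkbiz, -0.57 for Nfkbib and -0.46 for Rela.

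In 1 of the 18 groups of 4 arrays examined, a single array stood far from the other 3: Rela read 4743 on the first array with both factors and 4205 to 4268 on the others. Chance flags about 1 in 20 such groups.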

How the results depend on the processing

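Each member's change in the cell contrasts was recomputed under every alternative, 1502 values in all: 1464 kept direction and side of the threshold, 24 lost the call, 5 gained one and 9 changed sign, all on values that had not passed. Pool ratios are not among these 1502. With the second-highest probe set only 5 members remained: 5, 3, 4 and 5 were higher with TNF alone, TNF given TNC, TNC alone and both factors, and 1, 4 and 4 lower with TNC added to TNF, TNC against TNF and in the interaction. Of the 7614 genes tested there, 753, 474, 817 and 1123 were higher and 751, 634 and 404 lower, in the same order. In the pools 3 or 4 then met the level, and those past 2-fold numbered 1, 0, 1 and 2 for CaAngII in the WT suprarenal, KO suprarenal, WT infrarenal and KO infrarenal aorta, 1 and 1 for KO against WT in suprarenal CaAngII and infrarenal untreated pools, and 3 and 1 for infrarenal against suprarenal in WT and KO CaAngII mice. Some log2 ratios of the pools changed sign with it. Nfkbiz went from 0.69 to -0.576 for CaAngII in the KO infrarenal aorta, and Nfkb2 from 0.37 to -0.623 between untreated WT segments. The dim probe set of Nfkbib gave 2.36 in place of -0.06 for CaAngII in the KO suprarenal aorta. It gave 2.08 in place of -0.28 for KO against WT in suprarenal CaAngII pools. With TNC added to TNF, 2 members were higher under median centring, the 50th percentile filter and the intensity trend. Over all genes 3030 of 15534, 2739 of 11948 and 2736 of 15534 were then higher. Without a level filter 1 member was past 2-fold with CaAngII in the WT suprarenal aorta, and with log2(value + 32) 1 for KO against WT in suprarenal CaAngII pools. No share over all genes is given for the pool counts under these other settings, so they cannot be read as results about the members. In the cells, signs changed for Nfkbiz, TNF with TNC (-0.0264, second probe set), and, with TNC added to TNF, for Nfkb2 (0.0674) and Nfkbib (-0.377) with the second probe set, Rela (0.0556) and Relb (0.0376) with median centring, and Nfkbia with quantile normalization (-0.000384) and the most variable probe set (-0.0917). Leaving out single arrays, members higher ranged from 8 to 9 with TNF, 8 to 9 with TNC, 6 to 7 with TNF given TNC and 1 to 2 with TNC given TNF; members lower with TNC against TNF ranged from 5 to 7, and the interaction of Rel from -0.409 to 0.0311. Over all 15534 genes those higher ranged from 1894 to 2269, 2040 to 2568, 1133 to 1463 and 1964 to 2499. Those lower with TNC against TNF ranged from 1261 to 1644. With the replicate number as a block 9, 7 and 8 members were higher with TNF, TNF with TNC and TNC; 5 were lower for TNC against TNF, and the block within each arm left 7 interactions, Nfkbib being lost (adjusted p = 0.071). Over all 15534 genes 2090, 1327 and 2187 were then higher, 1445 lower for TNC against TNF, and 1065 negative in the interaction. Fitted to the groups compared alone, TNF with TNC lost Rel (adjusted p = 0.084). Over all genes, TNC without TNF called 2506 higher and 2435 lower, and 3986 and 1246 with median centring; TNF without TNC called 2214 and 3156, and 2620 and 1941; both factors 3217 and 3502, and 4790 and 1923. With the most variable probe set TNF called 1337 higher and 2026 lower, TNC 1572 and 1538. Apart from the second probe set, where fewer genes were tested, the cause was not tested.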
